A study of Mus musculus with 10 samples.

Results

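The genes described here are 35 genes of mitosis and the G2/M phase of the cell cycle, chosen by name with earlier results of these data known. They were read from a table of 10 arrays of mouse intestinal cells, in which 22180 genes had a probe set with 1 gene symbol. Of the 35, 33 were measured, each by 1 probe set. Ncapg was found only on a probe set shared by 2 symbols, and Ccnb1 on none of the probe sets listed in the annotation, so neither is given a value.

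The arrays compared 4 samples of crypt cells labelled as expressing Flattop (the Flattop arrays) with 6 samples of intestinal stem cells that were sorted for a high level of Lgr5 and of GFP (the Lgr5-high arrays). Flattop cells were taken from FltpT2AiCre mice crossed with the Gt(ROSA)26mTmG reporter, on a mixed C57BL/6J, CD1, 129/SvJ background. In those mice a Cre at the Flattop locus marks cells that express Flattop or descend from cells that did. The Lgr5-high cells came from Lgr5-EGFP-IRES-creERT2 mice on C57BL/6J, in which GFP reports the Lgr5 locus. All mice were 3 to 6 months old. Group, genotype and strain coincide and cannot be told apart. Neither the sorting gates nor whether arrays of a group came from separate animals could be read from the sources used here. Every p-value therefore reflects the spread among these samples, which may be technical.

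Cells that enter mitosis need a burst of cyclin-dependent kinase activity, a spindle that captures every chromosome at its kinetochore, a checkpoint that holds anaphase until capture is complete, and a ring that divides the cytoplasm. The transcripts of this machinery are made late in the cell cycle, when the MuvB complex, B-Myb and FoxM1 act on their promoters. Cell cycle homology region (CHR) and CCAAT elements are common in such promoters. In the intestine, Lgr5-positive crypt base stem cells and the transit amplifying cells above them divide, while mature Paneth, goblet, enteroendocrine and absorptive cells have left the cycle. A level on a bulk array therefore reads both how many cells are in G2 or mitosis and how much RNA each holds. Fewer such cells and less RNA per cell cannot be told apart here.

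The promoters of 29 of the 33 measured genes were found in the RefSeq promoter table for GRCm38.p6, which spans 250 bases before to 50 bases after each start. The CHR letters TTTGAA were present on either strand in 22 of the 29 (75.9%), against 17.9% of all 32851 windows of the same length. The CCAAT letters were in 20 (69.0%), against 37.4% of all windows, and both were in 18 (62.1%), against 6.95%. The B-Myb letters AACGG were in 8 (27.6%), against 17.4%. A CHR match can share its last bases with an AACGG match, and a match describes the letters only. A few windows are shown as printed stretches of 150 bases before to 20 after the start, 5′ to 3′ on the strand of the gene, with CHR and CCAAT letters of that strand in capitals. They were chosen after the values were seen: Ccnb2 and Mki67 each hold both motifs, at different distances from the start, and Cenpf and Nusap1 are the genes that passed the test within 1 range of titles.
Ccnb2: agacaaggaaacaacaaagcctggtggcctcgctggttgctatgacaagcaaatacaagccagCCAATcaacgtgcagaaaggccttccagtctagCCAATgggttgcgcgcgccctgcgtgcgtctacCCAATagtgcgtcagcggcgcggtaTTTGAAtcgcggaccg
Mki67: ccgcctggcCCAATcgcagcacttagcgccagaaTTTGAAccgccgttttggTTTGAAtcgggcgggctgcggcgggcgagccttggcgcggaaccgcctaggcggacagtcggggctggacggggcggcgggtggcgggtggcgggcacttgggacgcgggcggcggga
Cenpf: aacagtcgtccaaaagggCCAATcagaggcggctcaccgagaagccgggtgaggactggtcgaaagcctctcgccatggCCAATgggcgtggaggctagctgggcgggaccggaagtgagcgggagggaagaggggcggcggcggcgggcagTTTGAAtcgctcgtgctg
Nusap1: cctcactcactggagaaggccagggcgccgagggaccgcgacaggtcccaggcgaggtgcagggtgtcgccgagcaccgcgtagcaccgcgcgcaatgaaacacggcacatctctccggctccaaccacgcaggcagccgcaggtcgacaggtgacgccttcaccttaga

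These stretches lie at chr9:70421535-70421704 on the minus strand (Ccnb2), chr7:135716360-135716529 on the minus strand (Mki67), chr1:189688067-189688236 on the minus strand (Cenpf) and chr2:119618148-119618317 on the plus strand (Nusap1). Ccnb2 held 1 CHR and 3 CCAAT matches in its stretch, Mki67 held 2 and 1, and Cenpf held 1 and 2. Nusap1 held 0 of either in its stretch.

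The values are log2 intensities. The median over all probe sets and arrays was 4.70 and array medians lay between 4.56 and 4.77. Of the 33 genes, 29 were above the array's own median on every array; Ndc80, Spc25, Kif23 and Cep55 fell below it on at least 1 array. As a check of the labels, Lgr5 read 9.19, 9.65, 6.44 and 8.21 on Flattop replicates 1 to 4 and between 8.99 and 9.90 on the Lgr5-high arrays. Cfap126, which encodes Flattop, read 4.67, 4.93, 6.20 and 5.89, and between 4.56 and 5.59 on the Lgr5-high arrays. The groups overlapped for both genes, and neither difference passed the test over all arrays. Numbers in the sample titles divide the arrays of both groups into titles 1 to 8 and 38 to 46. Cfap126 was at -0.44 within titles 1 to 8 (limma adjusted p = 0.547) and was higher in Flattop within titles 38 to 46 (1.29, limma adjusted p = 0.0383), and Lgr5 was at -0.16 and -2.04 (limma adjusted p = 0.911 and 0.115). The interaction passed for neither gene (limma adjusted p = 0.244 and 0.597).

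Averaged over the 33 genes, the Flattop arrays read 7.77, 7.51, 6.62 and 6.93 and the Lgr5-high arrays between 7.03 and 7.998, with group means of 7.21 ± 0.53 (SD, n = 4) and 7.47 ± 0.32 (SD, n = 6). Flattop replicates 1 and 2 lay inside the Lgr5-high range and replicates 3 and 4 lay below it. In limma's fit over all genes, 0 of the 33 passed an adjusted p of 0.05 (lowest adjusted p = 0.427), where 0.915% of all genes passed. At an unadjusted p under 0.05, 4 were lower in Flattop, namely Bub1, Cenpf, Kif4 and Nusap1, and 0 were higher, where 3.80% of all genes were lower and 5.98% higher. Differences ran from -1.02 to 0.76 on the log2 scale with a median of -0.33, against a median of -0.064 over all genes. Of the 33, 23 were negative, where 61.5% of all genes were. In 0 of the 33 did the groups not overlap, where 0.974% of all genes lay wholly lower in Flattop.

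**Figure D1:**
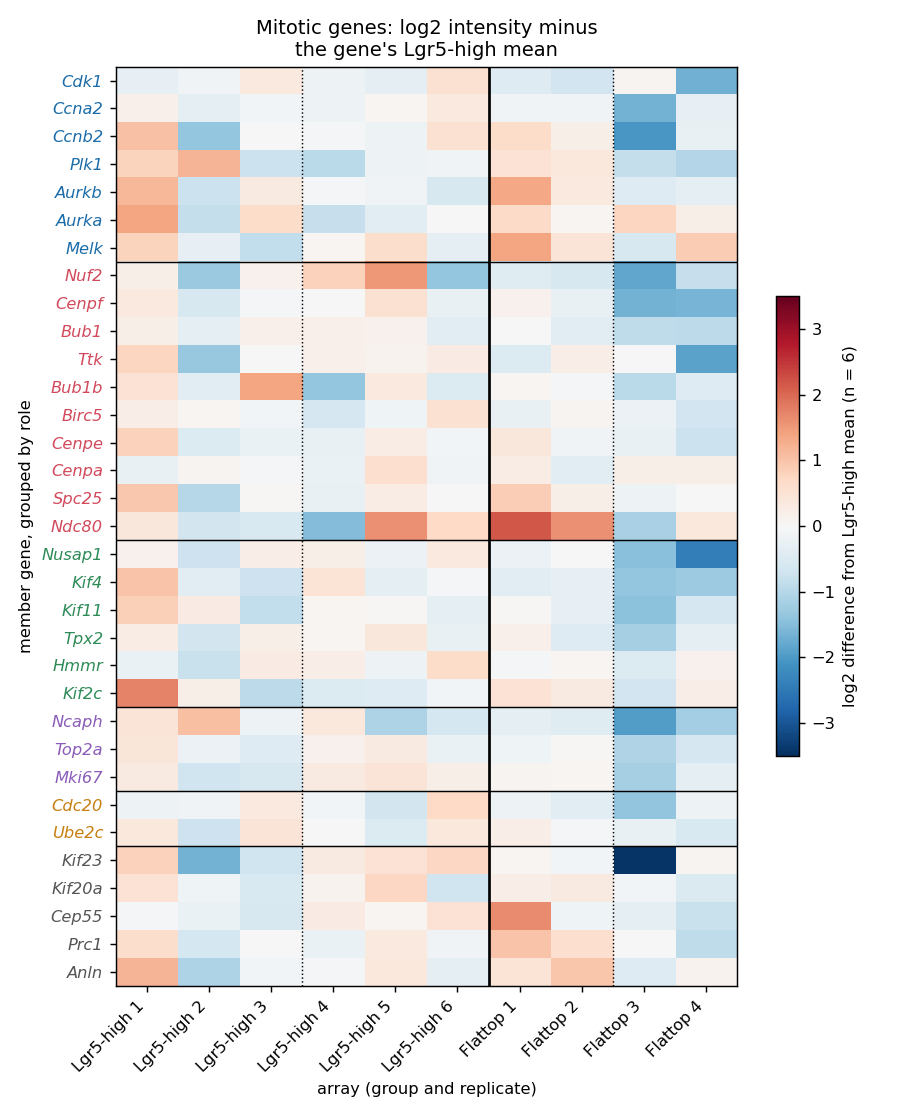
Log2 intensity of each of the 33 genes on each of the 10 arrays (columns), minus the mean of the 6 Lgr5-high arrays for that gene; rows are grouped by role, name colours mark the role, and dotted lines separate title numbers 1 to 8 from 38 to 46 within a group. Blue cells gather in the columns of Flattop replicates 3 and 4, and the darkest cell is Kif23 on Flattop replicate 3, at 4.61.

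Among cyclins and mitotic kinases, 7 of 8 were measured and 0 passed the test. Cdk1, the kinase that drives entry into mitosis, read 8.16, 7.96, 8.73 and 6.95 on Flattop replicates 1 to 4, and 8.31 at the lowest, 8.48 at the median and 9.17 at the highest on the Lgr5-high arrays. Replicates 1, 2 and 4 were below every Lgr5-high array and replicate 3 was within their range. The difference was -0.67 (SE 0.31, limma adjusted p = 0.525). Ccna2, the cyclin that partners Cdk2 and then Cdk1, read 9.44, 9.44, 7.89 and 9.27 in Flattop and 9.25, 9.54 and 9.89 as the lowest, median and highest in Lgr5-high. Only Flattop replicate 3 lay outside the Lgr5-high range, and the difference was -0.54 (SE 0.29, limma adjusted p = 0.596). The other 5 of this role gave differences of -0.36 for Ccnb2, a B-type cyclin, -0.25 for Plk1, which matures centrosomes, 0.24 for Aurkb, the kinase of the chromosomal passenger complex, 0.42 for Aurka, which acts at spindle poles, and 0.54 for Melk, a kinase that peaks in mitosis.

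Of 10 genes of the spindle checkpoint and kinetochore, 0 passed the test. Bub1 and Cenpf were the pair that were lower before adjustment. Bub1, a checkpoint kinase that sits on kinetochores, read 7.19, 6.86, 6.32 and 6.29 in Flattop and 6.82, 7.38 and 7.42 as the lowest, median and highest in Lgr5-high. Flattop replicates 3 and 4 lay below all Lgr5-high arrays. The difference of -0.55 (SE 0.22, limma adjusted p = 0.427) had the smallest p among the genes described here. Cenpf, which binds the outer kinetochore and the nuclear envelope in G2, read 7.58, 7.19, 5.78 and 5.81 in Flattop and 6.88, 7.41 and 7.99 in Lgr5-high. Again replicates 1 and 2 were inside the Lgr5-high range and replicates 3 and 4 were more than 1 log2 unit under its lowest array; the difference was -0.85 (SE 0.38, limma adjusted p = 0.497). Ndc80, the microtubule-binding subunit of the kinetochore, read 7.58, 7.01, 4.27 and 5.76 in Flattop and 3.89, 5.32 and 7.01 in Lgr5-high. Its range within the Lgr5-high group was the widest of the 33, spanning 3.11 between arrays there and 3.31 in Flattop. The difference of Ndc80 was 0.76 (SE 0.71, limma adjusted p = 0.743).

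The remaining 7 genes of this role spanned -0.91 to 0.22. Nuf2, a partner of Ndc80, gave -0.91, with Lgr5-high arrays between 6.19 and 9.07 around it. Ttk, the kinase that starts checkpoint signalling, gave -0.53, Bub1b, which encodes the inhibitor BubR1, -0.34, the passenger subunit Birc5 (survivin) -0.26, and the kinesin Cenpe -0.18. Cenpa, the centromeric histone variant, gave 0.08 and Spc25, another subunit of the Ndc80 complex, 0.22. None of these 7 passed the test.

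Among the 6 genes of the spindle and its motors, Kif4 and Nusap1 were lower at an unadjusted p under 0.05 and 0 passed after adjustment. Nusap1, which bundles spindle microtubules near chromosomes, read 8.27, 8.47, 7.03 and 6.08 in Flattop and 7.76, 8.66 and 8.83 as the lowest, median and highest in Lgr5-high. Its mean was 7.46 ± 1.12 (SD, n = 4) against 8.48 ± 0.40 (SD, n = 6), a difference of -1.02 (SE 0.43, limma adjusted p = 0.475), which was the most negative of the 33. The Flattop spread came from replicates 3 and 4, both under every Lgr5-high array. Kif4, a chromosome-bound kinesin, read 6.73, 6.83, 5.75 and 5.83 in Flattop and 6.38, 6.92 and 8.12 in Lgr5-high, with the same pair of arrays below the range. Its difference was -0.82 (SE 0.35, limma adjusted p = 0.482). Kif11, the motor that pushes spindle poles apart, gave -0.56, Tpx2, the activator of Aurora A, -0.44, the hyaluronan receptor and spindle protein Hmmr -0.08, and the microtubule-depolymerising kinesin Kif2c 0.09.

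All 3 measured genes of chromosome structure and proliferation had negative differences that did not pass. Mki67, the proliferation antigen that coats mitotic chromosomes, read 9.78, 9.76, 8.52 and 9.35 in Flattop and 8.97, 9.94 and 10.13 as the lowest, median and highest in Lgr5-high; the difference was -0.33 (SE 0.31, limma adjusted p = 0.745). All but replicate 3 of the Flattop arrays were within the Lgr5-high range. Top2a, the topoisomerase that untangles sister chromatids, read 9.59, 9.77, 8.67 and 9.15 in Flattop and 9.28, 9.71 and 10.14 in Lgr5-high, with a difference of -0.44 (SE 0.24, limma adjusted p = 0.607). Replicates 3 and 4 were below the Lgr5-high range. Ncaph, a condensin I subunit, read 7.43, 7.31, 5.78 and 6.54 in Flattop and 6.66, 7.83 and 8.79 in Lgr5-high, and its difference was -0.97 (SE 0.44, limma adjusted p = 0.513). Again replicates 3 and 4 lay below every Lgr5-high array.

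Both measured genes of the anaphase ubiquitin ligase pathway had negative differences that did not pass. Cdc20, the activator of the anaphase promoting complex, read 8.16, 7.95, 6.97 and 8.18 in Flattop and 7.70, 8.23 and 9.04 in Lgr5-high, a difference of -0.53 (SE 0.30, limma adjusted p = 0.612). Only replicate 3 lay outside the Lgr5-high range. Ube2c, the ubiquitin-conjugating enzyme of that complex, read 9.69, 9.37, 9.20 and 8.93 in Flattop and 8.73, 9.65 and 9.90 in Lgr5-high. Every Flattop array was within the Lgr5-high range, and the difference was -0.16 (SE 0.26, limma adjusted p = 0.864).

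Of the 5 genes of the midzone and cytokinesis, 3 had positive differences and 0 passed. Kif23, the kinesin of the centralspindlin complex, read 8.10, 7.95, 4.61 and 8.13 in Flattop and 6.39, 8.45 and 8.83 in Lgr5-high. A single array, Flattop replicate 3, set its difference of -0.84 (SE 0.74, limma adjusted p = 0.725); without that array the difference was 0.025. Anln, which encodes the actin-binding ring protein anillin, read 6.88, 7.38, 5.95 and 6.54 in Flattop and 5.33, 6.33 and 7.59 in Lgr5-high, with all 4 Flattop arrays inside the range (0.28, SE 0.40, limma adjusted p = 0.833). Cep55, the midbody protein that recruits the abscission machinery, read 6.70, 4.88, 4.71 and 4.24 in Flattop and 4.48, 5.05 and 5.54 in Lgr5-high. Here replicate 1 was above and replicate 4 below the Lgr5-high range, and the difference was 0.10 (SE 0.41, limma adjusted p = 0.950). The midzone bundler Prc1 gave 0.18 and the kinesin Kif20a -0.01.

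**Figure D2:**
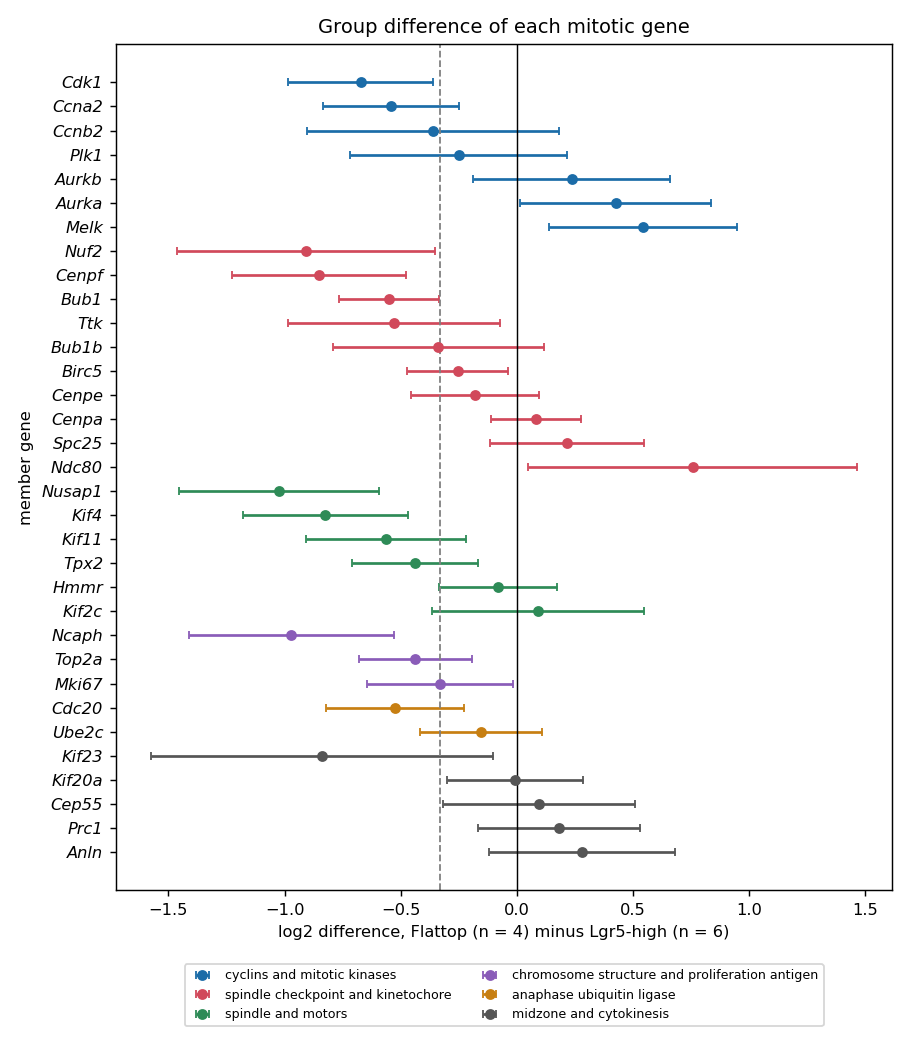
Difference of each of the 33 genes, Flattop minus Lgr5-high, on the log2 scale (x axis), with bars of 1 standard error from limma's fit; colours mark roles, the solid line is 0 and the dashed line is the median of the 33, -0.33. Points run from -1.02 (Nusap1) to 0.76 (Ndc80), and none passed an adjusted p of 0.05.

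The Flattop arrays differed among themselves in the same order for many of these genes. Flattop replicate 3 was the lowest of the 4 Flattop arrays for 20 of the 33 genes and replicate 4 for 11, against 24.4% and 19.9% of all genes. Replicate 1 was the highest for 21 of 33 and the lowest for 0, against 21.9% and 25.8% of all genes. Among the 6 Lgr5-high arrays, replicate 1 was the highest for 15 genes and replicate 2 the lowest for 16, against 13.7% and 14.9% of all genes. Flattop replicates 1 and 2 and Lgr5-high replicates 1 to 3 have title numbers 1 to 8, and the others 38 to 46. What these numbers mark is not given in the labels.

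Within titles 1 to 8 (2 Flattop and 3 Lgr5-high arrays) the mitotic genes gave no call in either direction. Of the 33, 0 passed an adjusted p of 0.05 (lowest limma adjusted p = 0.449), where 0.410% of all genes passed. The median difference was 0.032, against -0.094 over all genes. There were 21 positive and 12 negative, where 60.8% of all genes were negative. After a second quantile normalisation the median was -0.11, with 21 negative. It also turned negative without Lgr5-high replicate 2 (-0.11) or Flattop replicate 1 (-0.03) and reached 0.25 without Lgr5-high replicate 1. Ndc80 alone was higher at an unadjusted p under 0.05 (2.16, SE 0.83, limma adjusted p = 0.449), where 5.36% of all genes were. Cdc20, Cdk1 and Ncaph lay wholly lower in Flattop and Ndc80 wholly higher, so that 3 of 33 were wholly lower where 19.7% of all genes were, and 1 wholly higher where 11.1% were.

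Within titles 38 to 46 (2 and 3 arrays) most of the genes read lower in Flattop, and 2 passed the test. Nusap1 read 7.03 and 6.08 on the Flattop arrays and 8.69, 8.29 and 8.83 on the Lgr5-high arrays, and was lower by 2.05 on the log2 scale (difference -2.05, SE 0.36, limma adjusted p = 0.0408). Cenpf read 5.78 and 5.81 against 7.44, 7.99 and 7.17, a difference of -1.74 (SE 0.31, limma adjusted p = 0.0446). That is 2 of 33, where 0.234% of all genes were lower at this threshold. Both calls sat close to the threshold. Of the 10 fits that each left out 1 array, Nusap1 passed in 2, those without Lgr5-high replicate 2 or Flattop replicate 3 (limma adjusted p from 0.0238 to 0.144 over the 10), and Cenpf in 2, those without Lgr5-high replicate 1 or 2 (0.0322 to 0.178). Both calls also ended under a trended and robust variance prior (0.0552 and 0.0776), and that of Cenpf with arrays centred on their medians (0.0667). When the 5 arrays of titles 38 to 46 were fitted on their own, 0 of the 33 passed (lowest limma adjusted p = 0.121). Fits without Flattop replicate 3 or 4 leave 1 Flattop array in this range, which is assumed to vary as the other groups do. The promoter stretches of both genes are printed above. That of Nusap1 lies inside the span of Oip5, which overlaps the start of Nusap1 on the other strand. A strand-specific reading of the probe set was not tested.

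At an unadjusted p under 0.05, 9 of the 33 were lower in titles 38 to 46, namely Ccna2, Bub1, Cenpf, Kif4, Nusap1, Mki67, Top2a, Ncaph and Kif23, where 3.85% of all genes were. The median difference was -0.75, against -0.017 over all genes, and 29 of 33 were negative, where 52.6% of all genes were. In 14 genes every Flattop array was below every Lgr5-high array of that range, where 12.3% of all genes were, and in 1, Aurka, every Flattop array was above, where 12.2% of all genes were. By role, the median was -1.07 for the 3 genes of chromosome structure, -0.86 for the 6 of the spindle, -0.56 for the 10 of the kinetochore and checkpoint, -0.56 for the 2 of the anaphase ligase, -0.53 for the 7 cyclins and kinases and -0.42 for the 5 of cytokinesis. In titles 1 to 8 the same medians were 0.02, -0.04, 0.03, -0.13, 0.03 and 0.72.

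**Figure D3:**
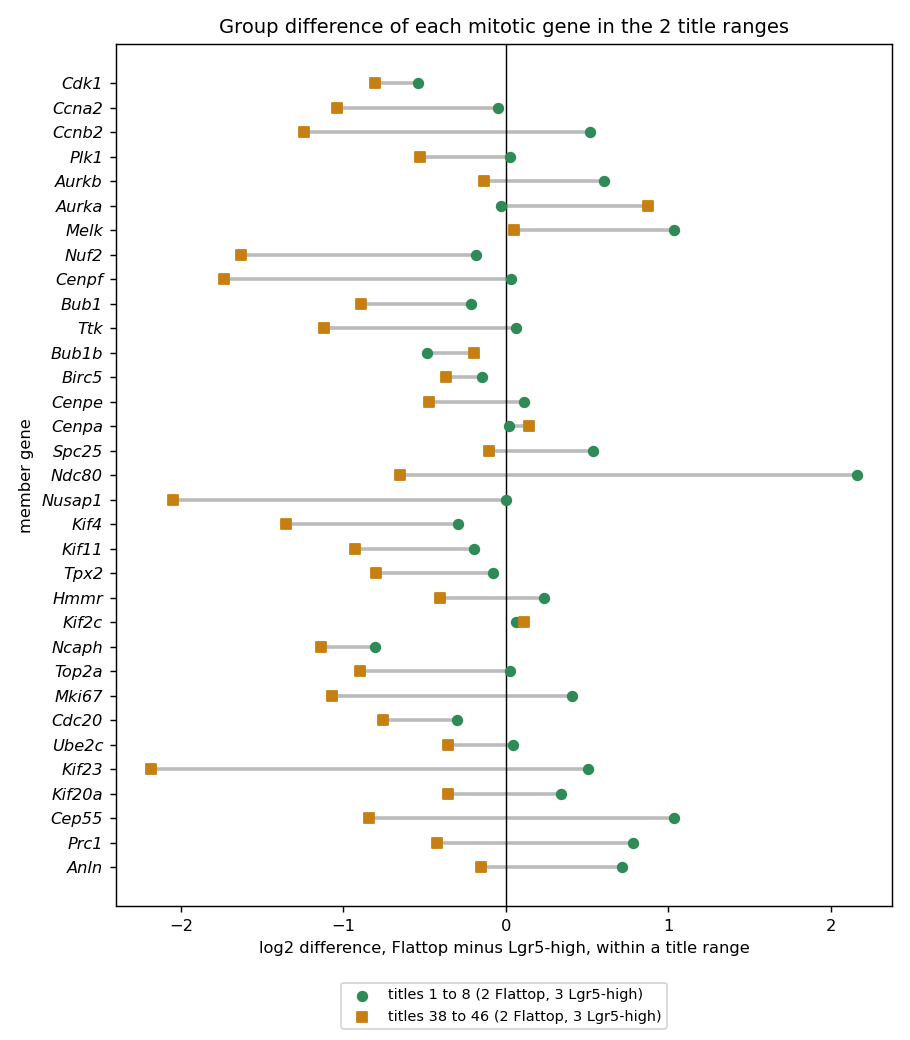
Difference of each of the 33 genes, Flattop minus Lgr5-high, on the log2 scale (x axis), within titles 1 to 8 (green circles) and within titles 38 to 46 (orange squares), from 1 fit with a mean for each group in each range; grey lines join the values of a gene. In titles 38 to 46, 29 of 33 are negative, where 52.6% of all genes are. In titles 1 to 8, 12 are, where 60.8% of all genes are.

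The difference between the ranges was itself tested as an interaction of group and title range. For 0 of the 33 did it pass (lowest limma adjusted p = 0.456), where 0.00902% of all genes, 2 in number, passed, so no gene here was shown to differ between the ranges. At an unadjusted p under 0.05, Ndc80 (-2.81, SE 1.18), Nusap1 (-2.05, SE 0.51), Cep55 (-1.87, SE 0.64), Cenpf (-1.77, SE 0.44) and Mki67 (-1.48, SE 0.48) had negative interactions, which is 5 of 33 where 3.77% of all genes were negative. The median interaction was -0.73, against 0.079 over all genes, and 29 of 33 were negative, where 42.8% of all genes were. With 1 array left out this median ran from -1.11 (without Lgr5-high replicate 1) to -0.56 (without Flattop replicate 1). It was also -0.56 after a second quantile normalisation.

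Among the Lgr5-high arrays no mitotic gene was called between the title ranges. Of the 33, 0 differed between titles 38 to 46 and 1 to 8 at an unadjusted p under 0.05, where 4.84% of all genes did, and the median difference was 0.073. That median followed single arrays, at 0.32 without Lgr5-high replicate 1, -0.10 without replicate 2 and -0.05 without replicate 5. In the Flattop arrays the same comparison gave 0 calls after adjustment (lowest limma adjusted p = 0.170), where 0.0676% of all genes passed. At an unadjusted p under 0.05, 9 were lower in titles 38 to 46, where 6.01% of all genes were: Plk1, Bub1, Ndc80, Cenpf, Nusap1, Top2a, Ncaph, Prc1 and Cep55. The median was -0.80, against 0.074 over all genes, and 31 of 33 were negative, where 42.3% of all genes were. These comparisons use the same arrays as the within-range ones.

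**Figure D4:**
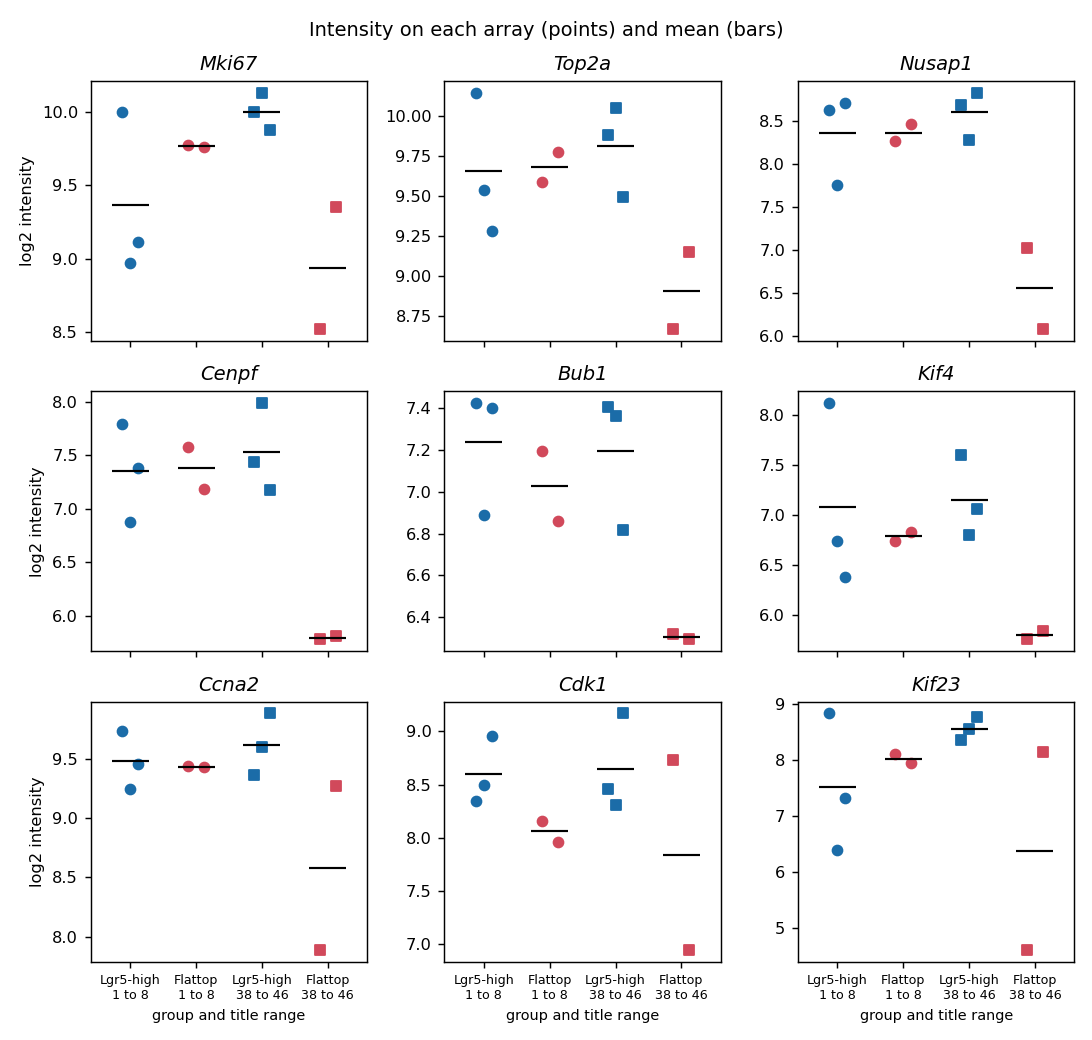
Log2 intensity (y axis, a scale of its own for each gene) on every array for 9 of the genes, by group and title range; circles are titles 1 to 8, squares titles 38 to 46, blue is Lgr5-high, red is Flattop, and black bars are means of 3 or 2 arrays. For Nusap1, Cenpf, Bub1 and Kif4 both Flattop arrays of titles 38 to 46 lie below all other arrays, while for Kif23 a single Flattop array is low.

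A further 126 genes of mitosis were followed in 6 lists (regulators, kinetochore, spindle, cytokinesis, condensin and cohesin, and subunits of the anaphase promoting complex), of which 119 were measured. Of these, 1 passed as higher in Flattop and 0 as lower, where 200 and 3 of all 22180 genes did. Their median difference was -0.069. Before adjustment, 7 of the 119 had a p under 0.05 as lower and 1 as higher, where 3.80% and 5.98% of all genes did. Within titles 38 to 46 the median was -0.35 and 89 of 119 were negative, where 52.6% of all genes were. Kntc1, a kinetochore protein that recruits dynein, was lower there (-0.98, limma adjusted p = 0.0492) and Haspin higher (3.08, limma adjusted p = 0.0123). Among all 22180 genes, 52 passed as lower in that range and 181 as higher. Kntc1 passed in 1 of the 10 fits that left out an array, the one without Lgr5-high replicate 5, and Haspin in 8, all but those without Lgr5-high replicate 4 or Flattop replicate 3. Foxm1, a transcription factor of G2/M genes, read 5.59, 5.53, 4.96 and 5.70 in Flattop and 5.78, 5.95 and 6.88 as the lowest, median and highest in Lgr5-high. The groups did not overlap, where 0.974% of all genes lay wholly lower in Flattop. The difference of -0.68 (SE 0.24) did not pass (limma adjusted p = 0.351). Mybl2, which encodes B-Myb, gave 0.42 (SE 0.27, limma adjusted p = 0.651).

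The gene that passed as higher was Haspin, the kinase that marks histone H3 for the passenger complex. It read 6.53, 7.22, 8.13 and 8.26 in Flattop and 4.78, 5.29 and 6.21 as the lowest, median and highest in Lgr5-high, a difference of 2.17 (SE 0.39, limma adjusted p = 0.0305). It passed in 10 of 19 alternatives, its difference stayed between 1.93 and 2.51, and the call ended with the replicate block, after a second quantile normalisation and without any 1 of Lgr5-high replicates 2, 4, 5 and 6 or Flattop replicates 2, 3 and 4. In the RefSeq annotation Haspin lies inside the span of Itgae, an integrin of intraepithelial lymphocytes. Itgae read 7.05, 8.18, 10.80 and 9.74 in Flattop and 4.08, 4.67 and 4.88 in Lgr5-high (4.35, limma adjusted p = 0.00502). The part of Itgae transcripts in the Haspin value was not tested.

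Of the 28 S phase genes, which copy DNA before mitosis, 27 were measured, with a median difference of -0.67. Negative differences were seen in 25 of the 27, where 61.5% of all genes had one. Before adjustment 12 had a p under 0.05 as lower, where 3.80% of all genes did. After it 1 passed as lower, where 3 of all 22180 genes did: Slbp, the histone mRNA stem-loop binding protein (-0.75, SE 0.15, limma adjusted p = 0.0468). Slbp passed in 5 of 19 alternatives, and in 1 of the 10 that left out an array, the one without Flattop replicate 1 (difference between -0.83 and -0.65). Within titles 38 to 46, 4 of the 27 passed as lower, where 0.234% of all genes did. They were Prim1 and Pola1 of the DNA polymerase alpha-primase complex, the helicase subunit Mcm4 and the chromatin remodeller Hells. Their differences were -4.08, -1.29, -1.85 and -3.10, with limma adjusted p of 0.000923, 0.0399, 0.0123 and 0.0109. Prim1 and Hells passed in each of 17 alternatives, Mcm4 in 16 (0.0624 without Flattop replicate 3) and Pola1 in 7, of which 2 left out an array (Lgr5-high replicate 2 or Flattop replicate 4). The fits without Flattop replicate 3 or 4 take the spread of the lone Flattop array from the other groups. The list median was -0.85 there, against -0.36 within titles 1 to 8. Of 16 G1 cyclins, kinases and partners, 0 passed (median -0.17), and of 7 cyclin-dependent kinase inhibitors 0 passed (median 0.05). Among the latter, the p53 target Cdkn1a read 9.85, 8.80, 8.88 and 9.41 in Flattop and 6.08, 7.56 and 8.31 in Lgr5-high (1.75, SE 0.40, limma adjusted p = 0.0921). Its groups did not overlap, where 2.01% of all genes lay wholly higher in Flattop.

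Of the marker lists followed here, those of lymphocytes and of stem cells set the same pair of Flattop arrays apart from all others. Of 14 markers of T cells and intraepithelial lymphocytes, 11 passed as higher in Flattop (median 4.96), where 200 of all 22180 genes did. The mean of the 14 was 7.77, 8.34, 10.12 and 9.35 on Flattop replicates 1 to 4 and between 4.38 and 4.82 on the Lgr5-high arrays. From 7 to 10 of the 14 were below the array median on each Lgr5-high array and from 1 to 3 on each Flattop array. Thus the arrays with the lowest mitotic means, replicates 3 and 4, had the highest lymphocyte means. Of 13 crypt base stem cell markers, 0 passed and all were negative (median -0.63), where 61.5% of all genes were negative. Their means were 8.44, 8.76, 7.48 and 7.87 in Flattop and between 8.52 and 9.10 in Lgr5-high. Within titles 38 to 46 the median of these markers was -0.97, and 3 of 13 passed as lower, where 0.234% of all genes did. They were Olfm4 (-0.97), Rgmb (-1.33) and Slc12a2 (-1.56), with limma adjusted p of 0.0362, 0.0240 and 0.0238. Dissociation response genes averaged 7.90, 7.55, 7.58 and 8.53 in Flattop and from 6.64 to 8.31 in Lgr5-high, and 0 of 14 passed over all arrays. In titles 1 to 8 the median difference of these genes was -0.40. In titles 38 to 46 it was 1.01. There 1 of 14 passed as higher, where 181 of all 22180 genes did: the transcription factor Junb (1.94, limma adjusted p = 0.0480). The part of these cells, of cell handling and of the title ranges in the mitotic values was not tested.

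**Figure D5:**
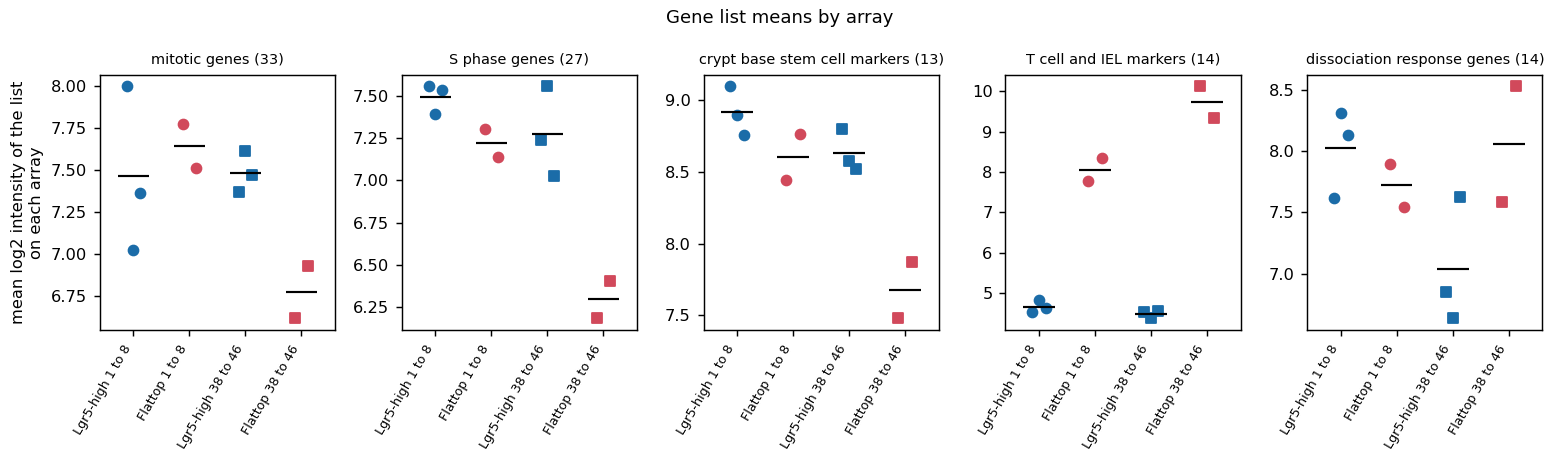
Mean log2 intensity of 5 gene lists on each array (y axis, a scale of its own for each list), by group and title range; circles are titles 1 to 8, squares titles 38 to 46, blue is Lgr5-high, red is Flattop, black bars are means, and list sizes are in brackets. On Flattop replicates 3 and 4 (right-hand squares) the means of mitotic genes (6.62 and 6.93), S phase genes (6.19 and 6.41) and stem cell markers are the lowest of all arrays, and lymphocyte markers (10.12 and 9.35) are the highest.

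Part of the markers of mature lineages were higher in Flattop. Of 10 Paneth markers 6 passed (median 3.18), of 8 goblet markers 5 (1.27), of 12 enteroendocrine markers 5 (1.30), of 10 enterocyte markers 6 (2.99) and of 6 tuft cell markers 0 (0.18), with 0 of them passing as lower. Calls over the whole table also lay mostly on the higher side: of all 22180 genes, 200 passed as higher in Flattop and 3 as lower. Within titles 38 to 46 the enteroendocrine list had 1 marker called higher, the hormone gene Gip (2.62, limma adjusted p = 0.00668), and 1 called lower, the progenitor factor Neurog3 (-3.53, limma adjusted p = 0.0340). Of all 22180 genes, 181 were called higher within that range and 52 lower. Of 9 general epithelial markers 1 passed over all arrays, Krt20, a keratin of differentiated cells. Differences were positive for 7 of the 9 (median 0.23), where 61.5% of all genes had negative ones. The means of the 9 markers were 10.33, 10.16, 9.36 and 10.08 on Flattop replicates 1 to 4 and between 9.10 and 9.43 on the Lgr5-high arrays. Within titles 38 to 46, 1 passed as higher, Vil1. Epcam, an adhesion protein of epithelium that was named after its values were seen, read between 10.78 and 10.91 on Flattop arrays. On Lgr5-high arrays it read between 10.69 and 10.99. Lists for these markers and for the other cell cycle genes were drawn up with earlier results of these data known.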

How the data were processed

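The 10 arrays (Affymetrix MoGene 2.0 ST) hold RNA of sorted cells. Per the labels' protocols, it was extracted with a miRNeasy Micro kit, amplified by the Ovation Pico WTA System V2 and biotinylated by the Encore module. The authors deposited log2 intensities per probe set, made by RMA in oligo 1.38.0 per the submitters' processing notes. Scanner files were not used here, so detection could not be judged, and precision is limited by how few arrays there are. RMA normalises arrays to 1 distribution, which can hide a change shared by most genes.

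Of 41345 probe sets, 23521 had 1 gene symbol, 1814 several and 16010 were not listed. Each gene took its probe set of highest mean. Groups were compared in R 4.3.3 with limma 3.58.1 (lmFit, eBayes), as two-sided tests of Flattop minus Lgr5-high. Adjustment was by Benjamini-Hochberg across 22180 genes, at a threshold of 0.05. A second model gave each group in each title range (1 to 8, 38 to 46) its own mean, for within-range differences and the interaction. All arrays entered every fit unless stated. The fits were tested on simulated data.

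The members, lists and alternatives were chosen with earlier results of these data known. Each Flattop array and the lowest, median and highest Lgr5-high array are given for Mki67, Top2a, the 2 members of each role and the 5 overall with the smallest p, and the 5 with the smallest interaction p; of other lists, up to 3 genes with the smallest p and any past the threshold may be named, beside Lgr5 and Cfap126. Mybl2, Epcam and some genes called within titles 38 to 46 were named after their values were seen. Promoters come from RefSeq (GRCm38.p6). Plots were drawn with matplotlib 3.10.9.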

Additional observations from a re-analysis of the deposited data

Results flagged for a closer look

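Of 66 groups tested (33 genes in each of the 2 groups), 4 held an array far from the others by Dixon's gap test, and chance flags about 1 in 20 groups. Ccna2 read 7.89 on Flattop replicate 3 and 9.27 to 9.44 on the other Flattop arrays. Kif23 read 4.61 on the same array and 7.95 to 8.13 on the others. Cenpa read 6.31 on Flattop replicate 2 and 6.88 to 6.92 on the others. Ttk read 6.16 on Lgr5-high replicate 2 and 7.49 to 8.24 on the other Lgr5-high arrays.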

How the results depend on the processing

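In the comparison over all arrays 0 of the 33 genes passed in each of 21 alternatives (lowest limma adjusted p = 0.120, with the replicate block), and 0 interactions passed in 17. The median difference of -0.33 ran from -0.75 (titles 38 to 46 alone) to 0.032 (titles 1 to 8 alone), and from -0.47 to -0.12 with 1 array left out. Of the 15 genes given array by array in Flattop, 282 of 285 differences and 251 of 255 interactions kept their direction and side of the threshold. The exceptions changed sign with 1 array left out. They were the differences of Cep55 (-0.42 to 0.39, negative without Lgr5-high replicate 3, at -0.01, or Flattop replicate 1) and Kif23 (-1.17 to 0.025, positive without Flattop replicate 3). Among interactions they were Ncaph (-0.71 to 0.080, positive without Lgr5-high replicate 4, or Flattop replicate 3, at 0.056), Cdc20 (-1.06 to 0.15, positive without Flattop replicate 3) and Cdk1 (-1.15 to 0.63, positive without Flattop replicate 4). The cause was not tested.

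Within titles 38 to 46 the 2 calls became 1 with arrays centred on their medians (Nusap1), 0 with a trended and robust variance prior, 0 with only those 5 arrays fitted, and 0 to 2 with 1 array left out. These repeats for genes called within titles 38 to 46 were chosen after seeing the data. Genes called in the comparison of all arrays, 203, became 57 with the replicate block, 77 in titles 1 to 8 alone and 85 in titles 38 to 46 alone, which hold fewer arrays, and 123 to 215 with 1 array left out (132 without Lgr5-high replicate 4, 123 without Flattop replicate 2). Interaction calls, 2, became 4 with a trended and robust prior and 0 to 38 with 1 array left out (38 without Flattop replicate 4). Replicate numbers 1 to 4 are shared by the groups, and same-numbered arrays correlated at 0.30, -0.21, -0.01 and 0.03 in their deviations from group means. With so few pairs, these values cannot tell whether the numbers pair samples. The replicate block changed no call among the 33. Groups of 2 and 3 arrays within a range, and values without a measured background, limit what can be seen.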
